A study of Malus hupehensis with 9 samples.

Results

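Phloem of A1d, a rootstock mutant that responds only in part to gibberellin, was set against phloem of its wild type, Malus hupehensis, at bud break. The comparison used 6 of the 9 libraries of the series, 3 of A1d and 3 of wild type (WT), and left out the 3 of the columnar hybrid QZ1 except as values beside single genes. Genes were kept where the deposited expression value, FPKM, reached 1 or more in 2 or more of these 6 libraries, which left 26335 of 39951 gene identifiers (65.9%). FPKM is a read count scaled to gene length and to the total of the library. A1d carries its mutation in the M. hupehensis background, and WT does not. The labels name no mutated gene, no treatment and no tree age. The design text speaks of "tree replicates", which may mean separate trees or be a misspelt number, and no label settles it. The p-values therefore cover the spread among these libraries, part of which may be technical.

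Gibberellin is a plant hormone that drives stem elongation, and in woody stems it also promotes the activity of the cambium, the dividing layer that makes phloem and wood. Its receptor acts by marking the DELLA proteins, which hold growth back, for breakdown, and plants that respond poorly to the hormone are often short. Phloem carries sugars and hormones through the bark to the buds that open in spring. The file does not pair its identifiers with gene names and no table of names was used here, so the genes of gibberellin synthesis and response, the mutated gene and the markers of phloem were not analysed here. The 2 genes with the steadiest large rise and the 2 with the steadiest large fall are given by identifier.

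One A1d library stood apart, and results are therefore given with and without it. In A1d replicate 1 18107 genes were at 0, while the other 5 libraries had 7273 to 9029, although its total of 15684510 reads was close to the 16615625 to 18022986 of the others. Of the 22845 genes with at least 1 FPKM in both other A1d libraries, 3270 (14.3%) were at 0 in it, and 332 of those that had at least 10 FPKM in both. For each of the other 5 libraries the same share was 0.0413 to 0.430% of the genes at 1 FPKM or more in the 2 other replicates of its group. The zeros lay mostly in low genes, at 58.7% of the lowest quartile of mean level and 0.562% of the highest.

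Gene length moved with this library. Its longest quartile of tested genes, 2222 to 18817 bases, held 52.9% of its reads, against 35.5 to 36.8% in the other 5 libraries. Its shortest quartile, 84 to 1013 bases, held 8.41% against 14.1 to 15.8%. The median difference of A1d replicate 1 from the WT mean, in log2(FPKM + 1), was -1.08 in the shortest quartile and 0.30 in the longest. A1d replicates 2 and 3 lay between -0.12 and -0.07 in every quartile, so they show no slope with length of that size. The median standard deviation between the A1d libraries was 0.50 on this scale with all 3 and 0.17 with replicates 2 and 3. In WT it was 0.30 with all 3, and 0.17 with replicates 2 and 3.

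**Figure D1:**
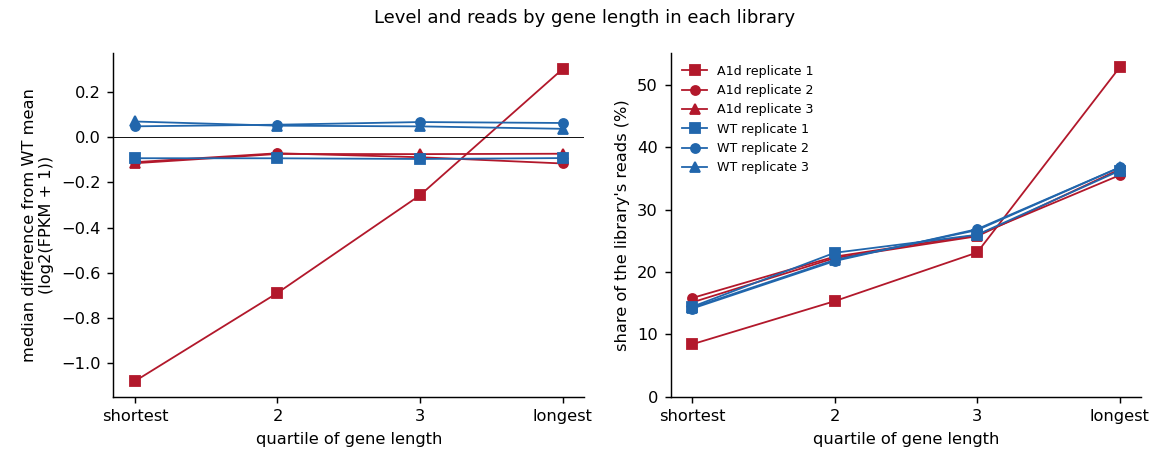
Left, the median difference of each library from the WT mean in log2(FPKM + 1), by quartile of gene length; right, the share of each library's reads in each quartile. Points are libraries, red for A1d and blue for WT. A1d replicate 1 climbs from -1.08 to 0.30 on the left and reaches 52.9% on the right, while the other 5 libraries lie flat on the left and near each other on the right.

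Few genes passed the test between A1d and WT phloem, in near equal numbers each way. The test was limma on log2(FPKM + 1), and called genes are those whose p, adjusted by Benjamini-Hochberg over all tested genes, fell under 0.05. With all 6 libraries 205 of the 26335 genes were called (0.778%), 103 higher in A1d (0.391%) and 102 lower (0.387%). With A1d replicate 1 left out there were 374 (1.42%), 201 higher (0.763%) and 173 lower (0.657%), and 196 of the 205 were among them in the same direction. Before adjustment 4020 genes had a limma p under 0.05 with all 6 libraries, and 5046 without A1d replicate 1. The few calls are therefore no measure of how many genes differ. The even split depended on the setting. Quantile normalization, which gives all libraries the same distribution, called 168 higher and 95 lower. A minimum of 5 FPKM called 59 higher and 32 lower with all 6 libraries. No filter called 171 higher and 78 lower without A1d replicate 1. Lower genes were in excess when WT replicate 1 was left out, with 24 higher and 86 lower, with library weights, with 1633 and 3110, and with both A1d replicate 1 and WT replicate 1 left out, with 1106 and 2371. The count also rested on every other library. Limma called 0 genes without A1d replicate 2 (3731 had an unadjusted p under 0.05), 1 without A1d replicate 3, 110 without WT replicate 1, 2 without WT replicate 2 and 0 without WT replicate 3 (2407 unadjusted). Adding the QZ1 libraries to the estimate of the spread called 826 (3.14%), and voom on the whole reads recovered from the FPKM steps called 2.

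The called changes were large. The median log2 fold change of the 103 higher genes was 2.83 and that of the 102 lower genes was 2.71 in size, and no called gene changed by less than 1.495. Without A1d replicate 1 the medians were 2.45 and 2.28 in size and the smallest was 0.990. The median standard error over all tested genes was 0.39 with all 6 libraries, so small changes could hardly pass. These sizes therefore reflect the test in part and do not describe the genes not called. In whole tissue, fewer cells that express a gene and less RNA in each cell cannot be told apart. In most of the genes called with all 6 libraries 1 of the rootstocks had next to none of the RNA. Of the 103 higher genes, 62 averaged under 1 FPKM in WT, and their median level as a list was 17.1 FPKM in A1d and 0.364 in WT. Of the 102 lower genes, 73 averaged under 1 FPKM in A1d, and the median level was 0.201 FPKM in A1d and 9.56 in WT. Only 9 of the higher and 10 of the lower genes had at least 10 FPKM in both rootstocks, where a change is one of degree. A1d replicate 1 was at 0 in 73 of the 102 lower genes and in 0 of the 103 higher ones. Its part in the lower calls was not tested apart from the count without it, in which 91 of 173 lower genes averaged under 1 FPKM in A1d replicates 2 and 3.

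Among the 99 higher genes called only without it, that library lay above all WT libraries in 57, within their range in 28 and below them in 14, and it was at 0 in 34. Among the 79 lower genes called only without it, it lay below all WT libraries in 72, within their range in 4 and above them in 3, and it was at 0 in 34. This library was at 0 in many genes, so its place below WT in those 34 is no support for the calls. What set its place in the rest of the lower list was not tested. Of the 9 genes called only with it, 8 were lower in A1d.

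**Figure D2:**
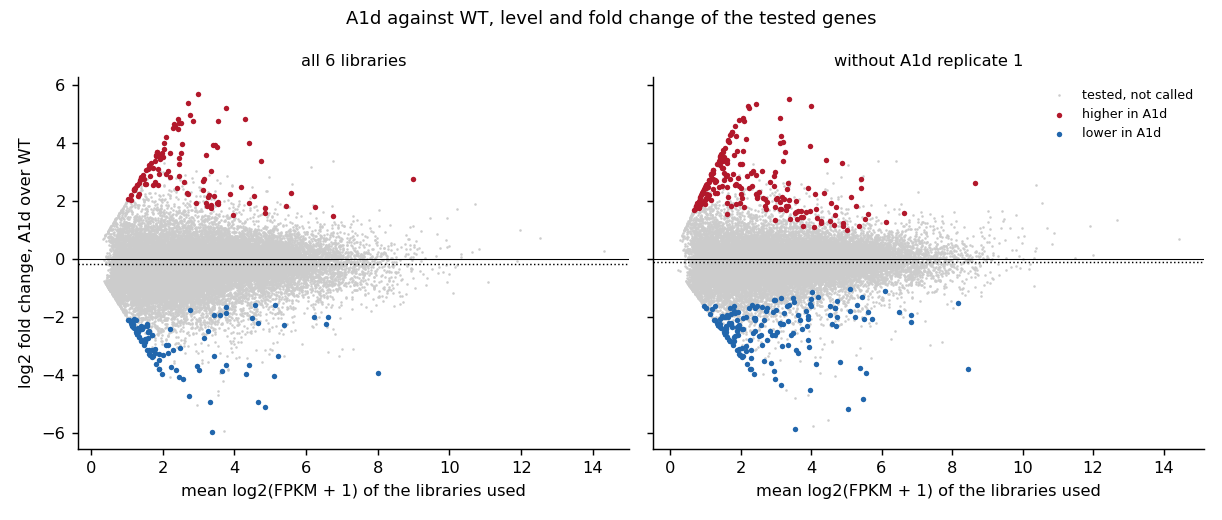
Log2 fold change of A1d over WT against the mean log2(FPKM + 1) of the libraries used, for the 26335 tested genes, with all 6 libraries (left) and without A1d replicate 1 (right). Coloured points are called (red higher, blue lower), and the dotted line is the median of all tested genes, -0.18 on the left and -0.09 on the right; most called genes have a low mean level.

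MD02G1101900, on chromosome 2 by its identifier, was among the strongest rises. It had 180, 38.8 and 24.6 FPKM in A1d replicates 1 to 3, against 0.138, 0.0701 and 0.0694 FPKM in WT replicates 1 to 3. The A1d libraries held 3401 reads of it and the WT libraries 4. Every A1d library was far above every WT library, and A1d replicate 1 was the highest. QZ1, which was not part of the comparison, had 0, 2.59 and 0 FPKM. The log2 fold change was 5.70 ± 0.69 (SE, n = 3 each; limma adjusted p = 0.0218; range 0.000135 to 0.333 across alternative settings). It was 4.87 with A1d replicate 1 left out (limma adjusted p = 0.00491). The call was lost without A1d replicate 2 (0.0988) or 3 (0.0622) and without WT replicate 1 (0.0662), 2 (0.143) or 3 (0.139), while the log2 fold change stayed between 4.87 and 6.28. It was 8.20 with a pseudocount of 0.1, where the call held (0.0289).

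The 2 identifiers that follow it directly rose with it. The first, of 311 bases, had 41.2, 26.0 and 13.0 FPKM in A1d and no read in any WT library (log2 fold change 4.65 ± 0.45, SE; limma adjusted p = 0.0138). The second, of 525 bases, had 16.8, 39.8 and 22.7 FPKM in A1d, against 0, 0.229 and 0.227 in WT (log2 fold change 4.49 ± 0.40, SE; limma adjusted p = 0.0125). Both were also called without A1d replicate 1 (limma adjusted p = 0.00992 and 0.00624). The tested gene just before MD02G1101900 was not part of this block: it had 36.4, 1.60 and 7.46 FPKM in A1d, against 4.50, 13.1 and 15.7 in WT, and its groups overlapped. Whether the 3 genes are copies of one another, between which reads could be split, cannot be told from identifiers.

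MD11G1104800, on chromosome 11 by its identifier, had 93.7, 33.8 and 22.5 FPKM in A1d, against 0.0468, 0 and 0 in WT. That is 3138 reads in A1d and 1 read in WT. The groups did not overlap. The log2 fold change was 5.39 ± 0.52 (SE, n = 3 each; limma adjusted p = 0.0138; range 0.000119 to 0.185 across alternative settings) and 8.52 with a pseudocount of 0.1, since its size depends on the value added to the near-zero WT. It was 4.82 with A1d replicate 1 left out (limma adjusted p = 0.00491). The call was lost without A1d replicate 2 (0.0800) or 3 (0.0622) and without WT replicate 2 (0.120) or 3 (0.115). The next identifier was also higher, with 19.2, 8.27 and 9.46 FPKM in A1d, against 1.22, 1.003 and 1.60 in WT (log2 fold change 2.47 ± 0.40, SE). Its limma adjusted p was 0.0493, or 0.0219 with A1d replicate 1 left out. The tested gene before it had 25.3, 11.6 and 5.64 FPKM in A1d, against 1.18, 0 and 0 in WT, and did not pass the test (limma adjusted p = 0.0661).

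MD02G1092100, also on chromosome 2, had the fall in A1d that stayed largest when any 1 library was left out, among genes called with and without A1d replicate 1. It had 2.48, 3.52 and 6.69 FPKM in A1d, against 206, 167 and 140 in WT, and every A1d library lay under every WT library. QZ1 had 81.4, 89.3 and 78.6 FPKM. With 411 reads in A1d and 15881 in WT, this fall did not rest on near-zero counts. The log2 fold change was -5.10 ± 0.33 (SE, n = 3 each; limma adjusted p = 0.0106; range 0.000119 to 0.101 across alternative settings). It was -4.85 without A1d replicate 1 (limma adjusted p = 0.00491). The call was lost without A1d replicate 2 (0.0679) and without WT replicate 2 (0.101) or 3 (0.0965), and it was 1 of the 2 calls made by voom (adjusted p = 0.0165). The tested genes nearest to it on each side did not pass the test, with log2 fold changes of -0.52 and -0.20. The second tested gene after it was lower too, with 1.59, 3.83 and 3.605 FPKM in A1d, against 22.0, 92.4 and 53.7 in WT (log2 fold change -3.66 ± 0.53, SE; limma adjusted p = 0.0345), a call lost with A1d replicate 1 left out (0.0509).

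MD04G1165700, on chromosome 4, had 0, 1.82 and 1.01 FPKM in A1d, against 50.5, 59.1 and 53.9 in WT. The WT libraries were close together, at a mean of 54.5 ± 4.35 FPKM (SD, n = 3), and the 50 reads found in A1d stood against 2698 in WT. QZ1 was low as well, with 2.56, 6.21 and 4.41 FPKM. The log2 fold change was -4.96 ± 0.41 (SE, n = 3 each; limma adjusted p = 0.0106; range 0.000119 to 0.126 across alternative settings), and -4.54 without A1d replicate 1 (limma adjusted p = 0.00491). The call was lost without A1d replicate 2 (0.0679) or 3 (0.0622), and without WT replicate 2 (0.106) or 3 (0.110). A pseudocount of 0.1 gave a log2 fold change of -6.51 and ended the call as well (0.0746). Its nearest tested neighbours on the chromosome did not pass the test, with log2 fold changes of 0.14 and 0.12.

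**Figure D3:**
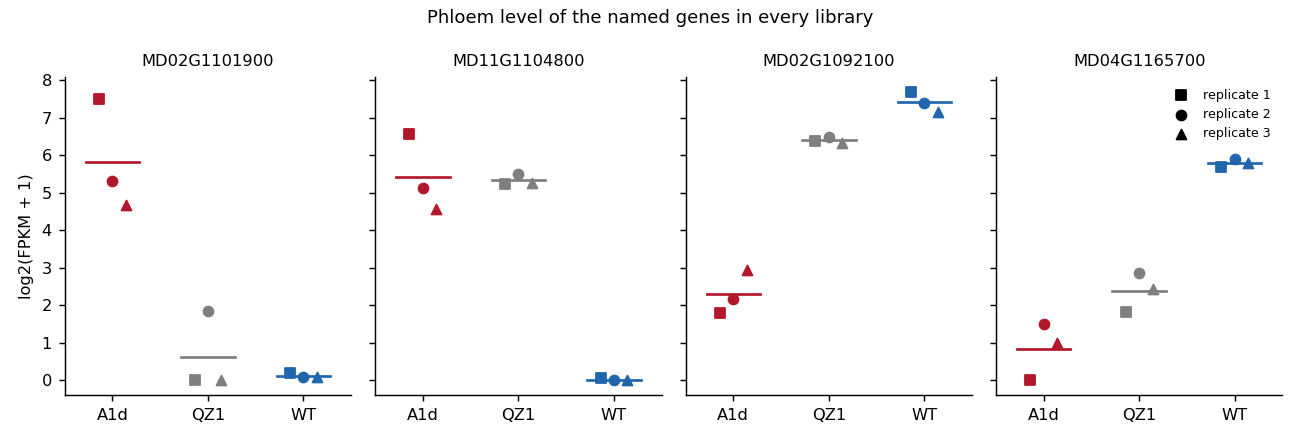
Log2(FPKM + 1) of the 4 named genes in each library of A1d, QZ1 and WT; each point is a library, its shape the replicate, and the bar the mean of 3. In the left pair all A1d points stand above all WT points, and in the right pair all stand below them; QZ1 lies near A1d for MD11G1104800 and MD04G1165700, nearer WT for MD02G1092100, and near WT in 2 of 3 libraries for MD02G1101900.

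Some genes were read in 1 rootstock and not at all in the other. With A1d replicate 1 left out, 68 genes had at least 1 FPKM in both remaining A1d libraries and no read in any WT library, and 71 had at least 1 FPKM in all WT libraries and no read in A1d replicates 2 and 3. Limma called 37 of the 68 and 36 of the 71 without A1d replicate 1, beside 1.42% of all tested genes. With all 6 libraries it called 17 and 31, beside 0.778%, and the rest did not pass the test. The lists were chosen by the same values, so these shares are no separate support. Their mean FPKM in the rootstock that expressed them ran from 1.08 to 23.7, with a median of 3.58, for the 68, and from 1.11 to 59.2, with a median of 3.62, for the 71. Taking 3 reads over the whole silent group as the most that 0 reads allow, the 68 genes were at least 5.14-fold to at least 535-fold higher in A1d replicates 2 and 3, with a median bound of 39.0. By the same floor the 71 genes were at least 3.09-fold to at least 355-fold lower in A1d replicates 2 and 3, with a median bound of 24.97. These bounds do not cover A1d replicate 1, which had 10.6 FPKM of the gene with the highest mean among the 71, 59.2 FPKM in WT. Both lists were short genes, with median lengths of 788 and 611 bases, against 1539 for all tested genes.

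A1d replicate 1, which had no part in choosing these lists, was at 0 in 20.6% of all tested genes, in 58.7% of those in the lowest quartile of mean level, and lower in short genes, so its zeros in lists of low, short genes say little about the rootstock. Of the 71 genes that A1d replicates 2 and 3 lacked, it was at 0 in 69 and above 1 FPKM in 2, at 10.6 and 8.23 FPKM. Of the 68 that they expressed and WT lacked, it was at 1 FPKM or more in 30 and at 0 in 38. With all 6 libraries the lists are therefore 30 and 69 genes. They were 39 and 97 without A1d replicate 2, and 34 and 150 without A1d replicate 3. Without WT replicate 1, 2 and 3 they were 36, 45 and 36 genes read in A1d and not WT, and 107, 83 and 87 read in WT and not A1d.

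**Figure D4:**
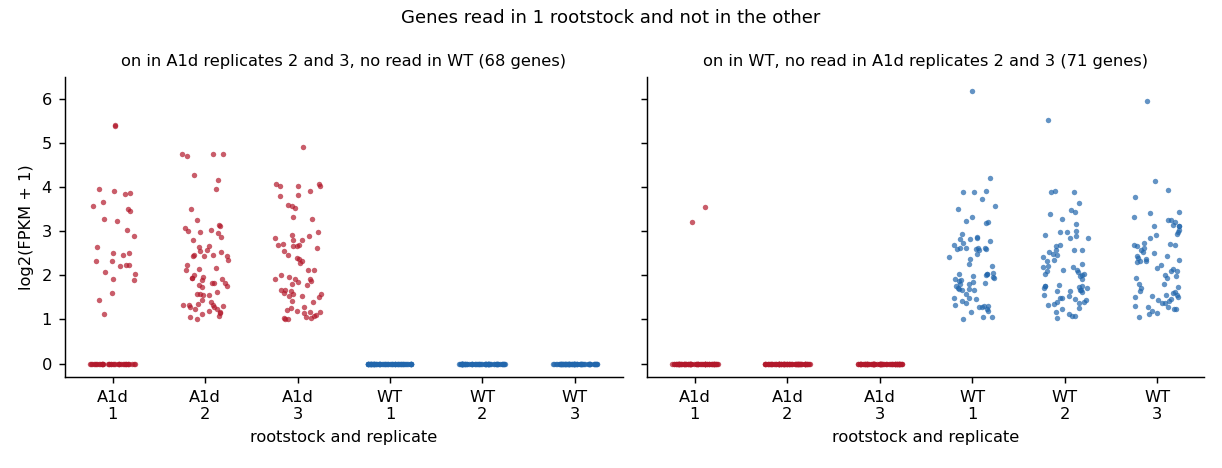
Log2(FPKM + 1) in every A1d (red) and WT (blue) library of the 68 genes read in A1d replicates 2 and 3 and not in WT (left) and of the 71 genes read in WT and not in A1d replicates 2 and 3 (right); each point is a gene. The libraries at 0 on each side were fixed by the choice of genes, except A1d replicate 1, which has 38 of the 68 genes at 0 on the left and 69 of 71 on the right.

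Chromosome 11 held the most of these genes. The chromosome was read from the first digits of the identifiers, whose form is that of a published apple annotation; the file does not state it. With 5.97% of the tested genes, chromosome 11 held 12 of the 68 genes (17.6%) and 12 of the 71 (16.9%). That is 15.3 for every 1000 tested genes, against 1.78 to 8.70 on the other 16 chromosomes and 9.54 among genes placed on none. Called genes were spread more evenly. With all 6 libraries the share called was largest on chromosome 11, at 1.34% or 21 of 1572 genes, and smallest on chromosome 1, at 0.166% or 2 of 1205. Without A1d replicate 1 chromosome 2 led with 2.48% (42 genes), followed by chromosome 11 with 2.29% (36 genes), and chromosome 1 was lowest with 0.415% (5 genes, all of them higher).

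The direction of the calls differed between some chromosomes, which was not tested. On chromosome 3 there were 20 higher and 5 lower genes without A1d replicate 1, and 11 and 2 with it. On chromosome 17 there was 1 higher and 11 lower without it, and 1 and 5 with it. The median log2 fold change of all tested genes of chromosome 17 was -0.20 without A1d replicate 1, against -0.13 to -0.05 on the other chromosomes. Called genes also stood side by side. Counting tested genes in the order of their identifiers, 20.1% of the 374 calls lay next to another call in the same direction. These made 27 pairs and 7 runs of 3, where 0.763% of all tested genes were called higher and 0.657% lower. With all 6 libraries 17.1% of the 205 calls did so, in 13 pairs and 3 runs of 3, beside 0.391% called higher and 0.387% lower. Whether such neighbours are copies of one another, between which reads could be split, cannot be told from identifiers.

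**Figure D5:**
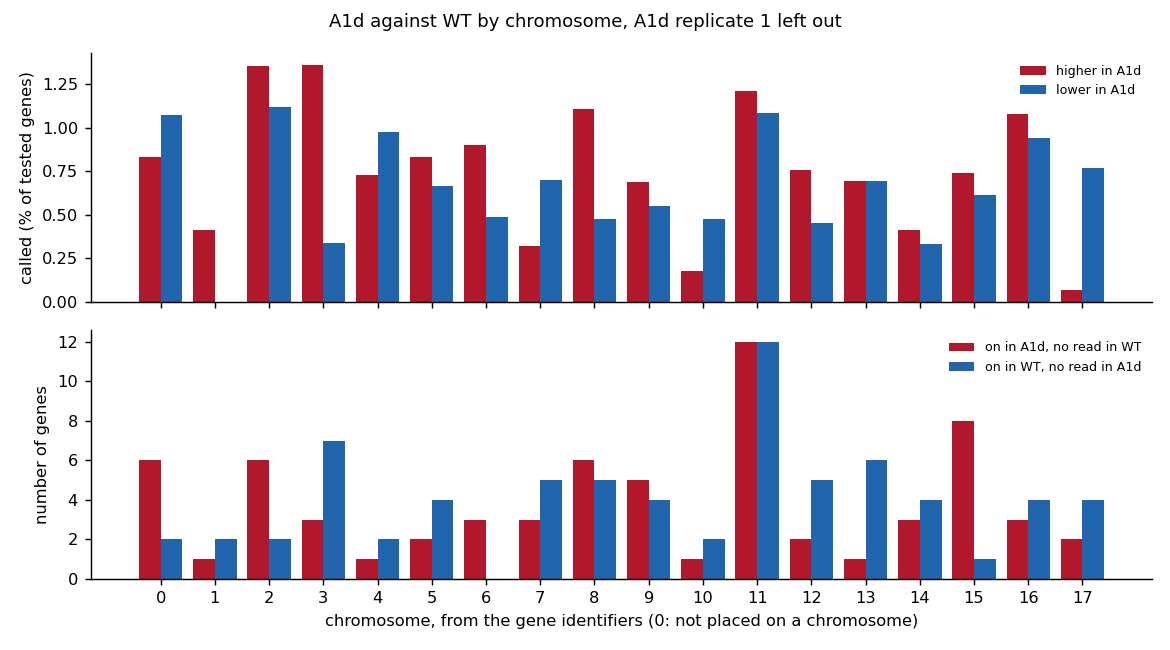
Top, the share of tested genes called higher (red) or lower (blue) in A1d than in WT by chromosome; bottom, the number of genes read in 1 rootstock and not the other, both without A1d replicate 1. Chromosome 11 has 12 genes of each kind in the lower panel, more than any other chromosome, while in the upper panel chromosome 2 has the largest total share, 2.48%.

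Across all tested genes the balance between higher and lower differed with the libraries used and with the scaling. The median log2 fold change was -0.18 with all 6 libraries, -0.09 without A1d replicate 1 and 0.021 under quantile normalization. Relative to its own median, the comparison with all 6 libraries put 1686 genes at least 1 log2 unit higher in A1d and 2680 at least 1 lower. With A1d replicate 1 left out the counts were 1413 and 1701. At 3 log2 units or more they were 66 and 62 with all libraries, and 70 and 51 without A1d replicate 1. Of the 3763 genes at a log2 fold change of -1 or less with all libraries, 2387 were at 0 in A1d replicate 1.

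The libraries of A1d lay above all of WT in 2479 genes and below all of WT in 4065, beside the 0.778% that were called. Under quantile normalization the lean turned, with 3783 above and 2727 below. The numbers were 4449 above and 5852 below with A1d replicate 1 left out, beside 1.42% called, and without WT replicate 1 they were 3585 and 7807. Fewer libraries overlap less often by construction, so these rises are no sign of more change. The share called fell with the mean level, from 1.49% in the lowest quartile to 0.380% in the highest. Without A1d replicate 1 it fell from 2.48 to 0.744%. Both fits had a trend of the spread with level, and whether the fall holds with no trend was not tested. By length the share called was 1.28% in the shortest quartile and 0.456% in the longest. Of the 102 lower genes, 54 were in the shortest quartile, as were 30 of the 103 higher ones. Without A1d replicate 1, 81 of 173 lower and 79 of 201 higher genes were in that quartile.

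Of the 100 genes with the highest mean FPKM, all at 378 or more, 2 were called with all 6 libraries, beside 0.778% of all tested genes, and 2 without A1d replicate 1, beside 1.42%. These 100 genes took 8.21, 13.96 and 13.2% of the reads in A1d replicates 1 to 3, against 11.5, 8.84 and 9.56% in WT. A1d replicates 2 and 3 both lay above all WT libraries in 32 of them and below in 13. With A1d replicate 1 the numbers were 11 and 10. The counts of called genes among them come from fits with a trend of the spread with level. Whether those counts hold with no trend was not tested.

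The most abundant of all, MD11G1246800, had 12943, 33178 and 26776 FPKM in A1d, against 17626, 18425 and 19541 in WT. A1d replicate 1 lay below every WT library, and the other A1d libraries lay above them. MD12G1141500 had 3247, 11179 and 12016 FPKM in A1d, against 4987, 3760 and 4994 in WT, with A1d replicate 1 again below every WT library and the other A1d libraries above. MD09G1079600 had 4766, 7347 and 5270 FPKM in A1d, against 2990, 2699 and 2777 in WT, and its groups did not overlap. None of the 3 passed the test (limma adjusted p = 0.970, 0.807 and 0.641). Their standard errors were large, 3.17, 1.41 and 1.05 on the log2 scale. With no trend of the spread with level in the fit, the standard error of MD09G1079600 was 0.28 and its limma adjusted p was 0.174. With A1d replicate 1 left out as well, MD12G1141500 had a limma adjusted p of 0.0521 and MD09G1079600 one of 0.0732.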

How the data were processed

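Polyadenylated RNA of phloem was sequenced from stranded TruSeq libraries, per the labels' protocols, and Trimmomatic is named in the submitters' processing notes. Not given in the sources used here are the aligner, counter, genome build and annotation. The authors deposited FPKM, a unit taken from the name of the deposited file, for 39951 identifiers. Reads of near-identical or overlapping genes may be split or lost. Members and lists were chosen with earlier results of these data known.

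Whole reads, library totals and gene lengths were computed from the steps of the FPKM values. All 37548 genes above 0 in any of 9 libraries came out whole to 0.0001 reads, besides rounding in the file. A unit called a read here may be a pair. Intervals and floors (3 reads) cover counting error only.

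Values were tested as log2(FPKM + 1), which understates the change of low genes, with limma 3.58.1 in R 4.3.3 (group means of 6 libraries, empirical Bayes moderation with an intensity trend), checked on simulated data. The simulated data had no outlying library and no lean with gene length, so the check does not cover these. P-values were adjusted by Benjamini-Hochberg over 26335 genes. The named genes were those called with and without A1d replicate 1 whose smallest log2 fold change over the fits leaving out each library was largest, 2 in each direction, plus the 3 most abundant. Planned gene lists were not used for want of names. Descriptions used Python 3.11.15 with numpy 2.4.6 and pandas 2.3.3, and figures matplotlib 3.10.9.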

Additional observations from a re-analysis of the deposited data

Results flagged for a closer look

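MD11G1104800 was also read in QZ1, a rootstock outside the comparison, at 39.4 ± 4.11 FPKM (SD, n = 3), in every library above the highest WT value of 0.0468 FPKM. Groups of 3 libraries are too small for a test of single outlying samples.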

How the results depend on the processing

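No gene called with all 6 libraries was called in the opposite direction under any alternative. The counts moved widely. With all 6 libraries the 205 calls became 90 with a pseudocount of 0.1, 103 with no filter, 91 with a minimum of 5 FPKM, 826 with QZ1 in the fit, 4743 with library weights, 66 against a 1.5-fold change, 2 with voom and 135 among the longer genes only, a setting chosen after seeing the data. They became 3477 when A1d replicate 1 and WT replicate 1 were both left out. The weights were 0.110 for A1d replicate 1 and 0.454 for WT replicate 1, against 1.59 to 3.02 for the rest. Leaving out 1 library gave 0 to 374 calls. The 374 calls without A1d replicate 1 became 249 with no filter, 217 with a minimum of 5 FPKM, 1429 with QZ1, 3391 with weights, 156 against a 1.5-fold change and 50 with voom, and 0 to 3477 when 1 more library was left out. The cause of these moves was not tested. MD02G1101900 kept its call in 13 of 20 alternatives, MD11G1104800 in 14 of 20, MD02G1092100 in 17 of 21 and MD04G1165700 in 13 of 20, each in its direction in all of them.

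Same-numbered libraries of A1d and WT did not deviate together (correlations across genes of -0.02, -0.03 and 0.04), and not every library correlated best with its own number. These deviations were taken from group means that include A1d replicate 1, so they cannot settle whether the numbers pair the samples. With the replicate number as a block limma called 0 genes (4167 at an unadjusted p under 0.05), and 3019, 982 higher and 2037 lower, without A1d replicate 1. In the latter fit WT replicate 1 is alone in its block and has no part in the fold change, as when both replicate 1 libraries are left out. The block ended the calls of all 4 named genes with all 6 libraries (adjusted p = 0.0802).

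The median log2 fold change moved to 0.021 under quantile normalization. Genes read in 1 rootstock only numbered 5 for A1d and 10 for WT from 5 FPKM, and 123 for WT from 0.5 FPKM; leaving out 1 library gave 34 to 68 and 71 to 150. Genes above all WT libraries became 3783 under quantile normalization. Leaving out 1 library gave 2994 to 4449 above and 4617 to 7807 below. With A1d replicate 1 and WT replicate 1 both left out the numbers were 6363 and 10458, beside 13.2% called, a setting chosen after seeing the data.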
